A study of Arabidopsis thaliana with 48 samples.

Results

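The Calvin cycle and photorespiration genes described here are 35 nuclear genes of Arabidopsis, chosen by locus from the 34262 genes of the count table. They comprise the 4 genes for the small subunit of Rubisco, Rubisco activase, the enzymes that reduce 3-phosphoglycerate and regenerate ribulose-1,5-bisphosphate, the 3 CP12 genes and 11 genes for enzymes of photorespiration. Transcripts were counted by RNA sequencing at 16 time points, every 0.5 h from 19.5 h to 27 h, in the 4th rosette leaf after its excision, with 3 replicates per time point and 48 libraries in all. All leaves had the same treatment: they were cut at the petiole from 21-day-old soil-grown plants, floated on a buffered solution, left 24 h at 16 °C without light, and transferred to white light without a dark period at 22 °C. The hours are those the labels give after the dark and cold treatment. The labels give no genotype, and no untreated or attached leaf is among the groups, so each comparison is between times within the window. The labels do not say that replicates came from separate plants, and the p-values therefore measure the spread between these samples only.

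In the Calvin cycle, Rubisco fixes CO2 onto ribulose-1,5-bisphosphate, the product is reduced to triose phosphate with ATP and NADPH, and most of the triose phosphate is used to rebuild the acceptor. Rubisco also accepts O2, and photorespiration recovers carbon from the resulting 2-phosphoglycolate through reactions in chloroplasts, peroxisomes and mitochondria. The nuclear genes of both pathways are known for high expression in leaf mesophyll and for control by light, sugars and the circadian clock.

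Library totals ran from 23572988 to 38763552 counts, with a median of 30954455. Levels are given as CPM, the share of a library's counts that a gene took, after scaling between libraries by the trimmed mean of M-values (TMM). A gene was tested where its mean over all libraries was at least 1 CPM, which 17568 genes and 34 of the 35 members did; PGLP1 (AT5G36700) did not. Differences between time points were tested with the quasi-likelihood F test of edgeR, with p-values adjusted over all tested genes by the Benjamini-Hochberg method and a threshold of 0.05. Replicate 1 at 22.5 h and replicate 3 at 24 h stood apart from the other libraries of their time points. LHY, a morning gene of the circadian clock, was at 21.9 CPM in the library labelled 22.5 h replicate 1, against 331 and 347 CPM in the other two of that time, and at 249.6 CPM in the library labelled 24 h replicate 3, against 36.8 and 29.5 CPM in the other two. Each was thus nearer in LHY to the libraries labelled with the time of the other. The summed mesophyll markers were at 69935 CPM in the library labelled 22.5 h replicate 1, against 57280 and 54246 CPM in the others of that time. They were at 41324 CPM in the library labelled 24 h replicate 3, against 41574 and 42978 CPM in the others of that time. The labels were kept as given, and whether the 2 libraries were exchanged or mislabelled was not tested, so the means of 22.5 h and 24 h depend on labels in doubt. Counts that moved when both were left out are given both ways. Leaf mesophyll markers, which include genes for light-harvesting proteins, summed to 18769.8 CPM or more in every library.

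The members took a smaller share of the counts at 27 h than at 19.5 h. Together they took 2.0% to 2.1% of the counts in the 3 libraries of 27 h, against 4.6% to 5.4% in those of 19.5 h. The share went down and up between these times: it was 2.34% to 2.73% at 21 h and 3.71% to 3.94% at 25.5 h. The ends also differed in LHY, at 32.6 to 48.3 CPM at 27 h, against 384 to 406 CPM at 19.5 h. The part of this difference in the members' trends was not tested. A slow trend was fitted for each gene, which is the linear change on the log2 scale over the window, 27 h minus 19.5 h. The trend fell in 31 of the 34 tested members and rose in 0, while 27.1% of all tested genes fell and 27.9% rose. The median trend of the tested members was -1.07, a 0.475-fold level at the end of the window, against 0.01 over all tested genes. By function, the trend fell in 5 of 5 genes of Rubisco and its activase, 5 of 5 of the reduction steps, 9 of 11 of regeneration, 2 of 3 CP12 genes and 10 of 10 tested genes of photorespiration. FBA3, TKL2 and CP12-3 did not pass the test. CP12-3 was the 1 member above 0 at an unadjusted p under 0.05, and DESeq2 and limma-voom also called 0 members rising. In bulk leaf samples, fewer cells of a type and less RNA per cell cannot be told apart.

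**Figure D1:**
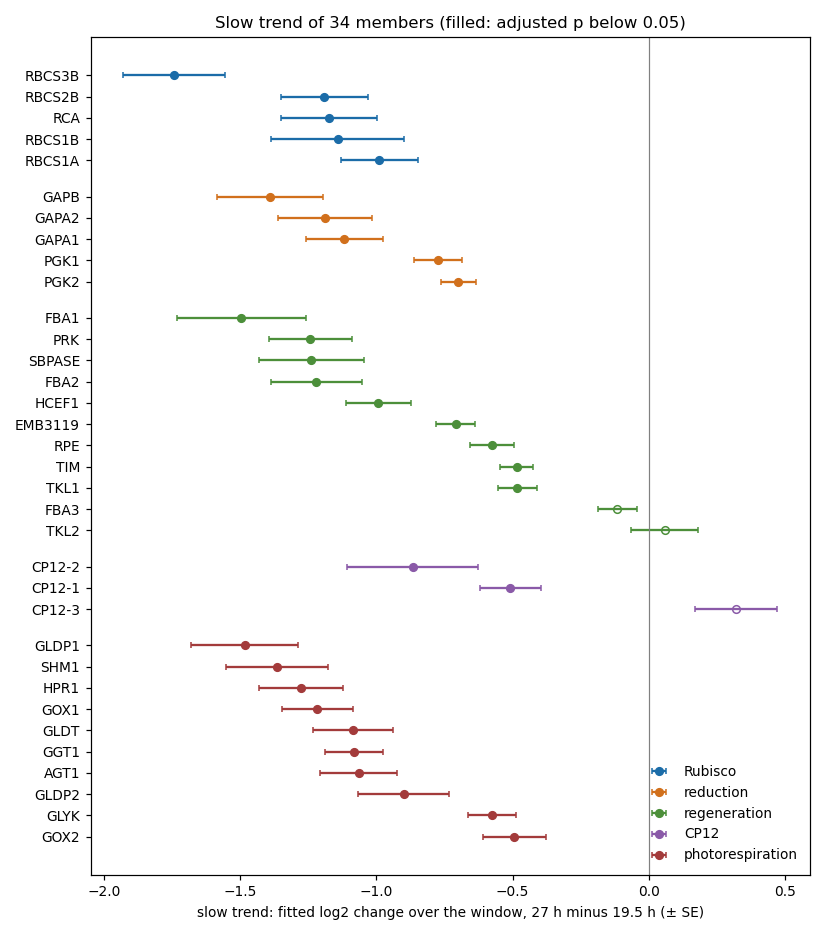
Slow trend of the 34 tested members, grouped by function. The x axis is the fitted log2 change over the window, 27 h minus 19.5 h, bars are the standard error and filled points have an adjusted p below 0.05. Of the members, 31 lie left of 0 with filled points, from -1.74 for RBCS3B to -0.48 for TKL1, and the open points of FBA3, TKL2 and CP12-3 lie between -0.12 and 0.32.

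The ends of the window gave a like count. In the contrast of 27 h with 19.5 h, 30 of 34 members were lower at 27 h, where 16.3% of all tested genes were lower, and 0 were higher, where 13.6% were. The members that did not pass were FBA3, TKL2, CP12-1 and CP12-3. At an unadjusted p under 0.05, CP12-3 was higher at 27 h, and DESeq2 and limma-voom called 0 members higher. In 30 members, all 3 libraries of 27 h lay below all 3 of 19.5 h, as they did in 24.9% of all tested genes. TKL2 was the 1 member whose 27 h libraries all lay above those of 19.5 h, a pattern that 24.2% of tested genes had.

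The large subunit of Rubisco is encoded by the plastid gene rbcL, and the small subunit comes from RBCS1A on chromosome 1 and from RBCS1B, RBCS2B and RBCS3B, which lie next to each other on the minus strand of chromosome 5 (chr5:15383167-15385320, chr5:15380907-15382071 and chr5:15376988-15378642, RefSeq positions on TAIR10.1). RBCS3B (AT5G38410) had the steepest trend of all 34 members. It had 2299, 2066 and 2033 CPM at 19.5 h, 981, 975 and 725 CPM at 21 h, 829, 1090.0 and 885 CPM at 23 h, 1353, 1286 and 787 CPM at 25 h, and 545, 472 and 453 CPM at 27 h. The 27 h and 19.5 h libraries did not overlap, and neither did those of 21 h and 25 h with those of 19.5 h. Its trend was -1.74 (SE 0.19, edgeR adjusted p = 4.01e-09), and its level at 27 h was 0.23 times that at 19.5 h in the contrast of the ends.

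RBCS1A (AT1G67090) is the most abundant of the small subunit genes. It had 6548, 6199 and 5867 CPM at 19.5 h, 3441, 3748 and 3092 CPM at 21 h, 2581, 3641 and 2935 CPM at 23 h, 4623, 4505 and 3090.0 CPM at 25 h, and 2879.9, 2764 and 2631 CPM at 27 h. Every 19.5 h library lay above every library of these other 4 times. The trend was -0.99 (SE 0.14, edgeR adjusted p = 6.98e-07). RBCS1B (AT5G38430), the least abundant, had 438, 381 and 435 CPM at 19.5 h, 129, 132 and 117 CPM at 21 h, 124, 197 and 179 CPM at 23 h, 376, 276 and 180.1 CPM at 25 h, and 115, 139 and 132 CPM at 27 h. Its libraries of 21 h and 27 h overlapped at about the same low level, and those of 25 h spread widely. Its trend was -1.14 (SE 0.25, edgeR adjusted p = 0.000226). RBCS2B (AT5G38420) had 476, 423 and 447 CPM at 27 h, against 1334, 1233 and 1087 CPM at 19.5 h, with no overlap and a trend of -1.19 (edgeR adjusted p = 2.24e-07).

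The make-up of the small subunit transcripts differed between the ends of the window. RBCS1A took 72.1% ± 0.58 of the summed RBCS CPM at 27 h, against 62.2% ± 0.54 at 19.5 h (SD, n = 3 each). RBCS3B took 12.8% ± 0.68 at 27 h, against 21.4% ± 0.41 at 19.5 h. RBCS2B took 11.7% and RBCS1B 3.37% at 27 h, against 12.2% and 4.20% at 19.5 h. The copies on chromosome 5 are close relatives: 14% of the 50-base windows of RBCS1B, 21.4% of those of RBCS2B and 18.3% of those of RBCS3B also occur in another gene, and 1.48% of those of RBCS1A, so how the counting treated reads from these stretches bears on the split between them.

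RCA (AT2G39730) encodes Rubisco activase, which frees Rubisco of inhibitory sugar phosphates. RCA had 12206, 11676 and 10693 CPM at 19.5 h, 5352, 4779.6 and 4098 CPM at 21 h, 6027, 6355 and 5485 CPM at 23 h, 8177, 8083 and 5677 CPM at 25 h, and 3761, 3317 and 3207 CPM at 27 h. It was highest at 19.5 h and lowest at 27 h among these times, with no overlap of either with the rest. The trend was -1.17 (SE 0.18, edgeR adjusted p = 1.47e-06). RCA made up 0.36% to 0.40% of all counts at 27 h, against 1.0% to 1.2% at 19.5 h.

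**Figure D2:**
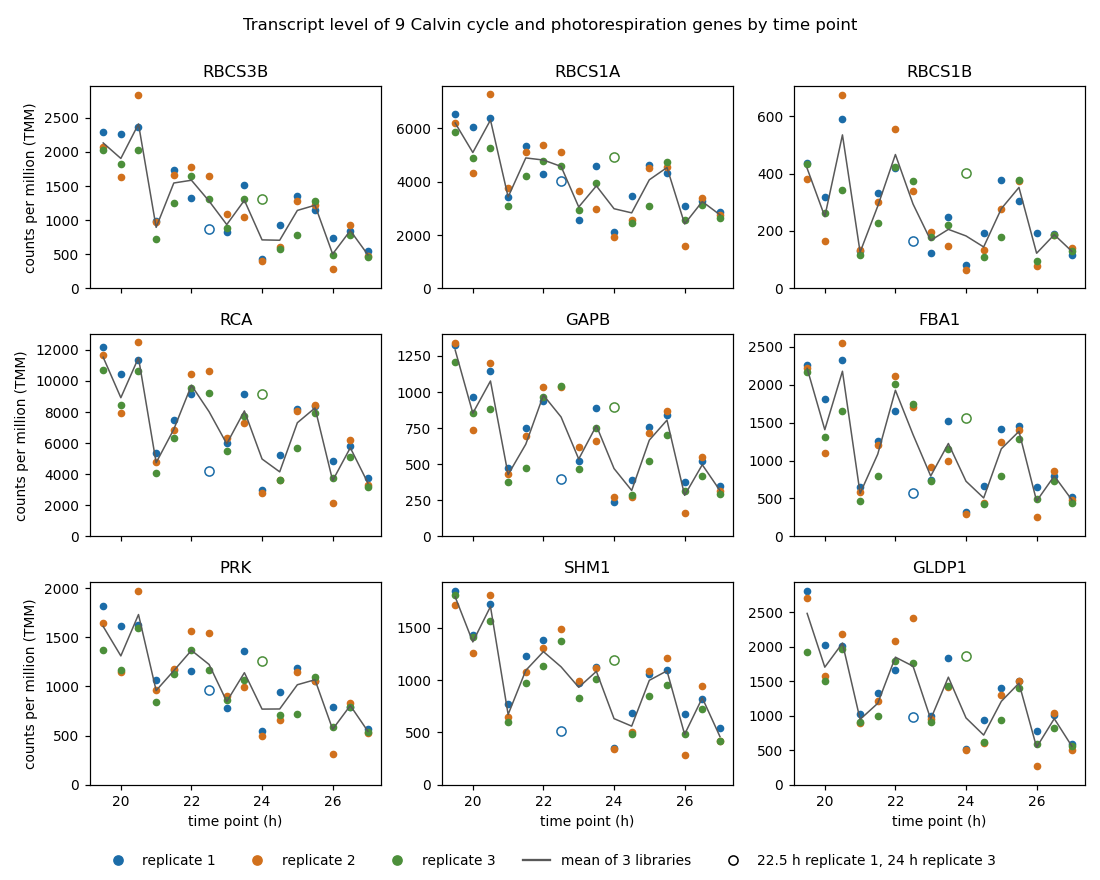
CPM of 9 members (y axes, linear, from 0) at each of the 16 time points (x axis, h), with 1 point per library, coloured by replicate, and a line through the mean of the 3 libraries. Open circles are 22.5 h replicate 1 and 24 h replicate 3. RCA at 27 h lies between 3207 and 3761 CPM, below all its values at 19.5 h, and the 9 genes share low values at 21 h and 26 h.

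The reduction steps convert 3-phosphoglycerate to triose phosphate through phosphoglycerate kinase (PGK1 and PGK2) and the chloroplast glyceraldehyde-3-phosphate dehydrogenase, whose A and B subunits come from GAPA1, GAPA2 and GAPB. GAPB (AT1G42970) had 1325, 1341 and 1209 CPM at 19.5 h, 472, 432 and 380.0 CPM at 21 h, 525, 619 and 464 CPM at 23 h, 760.3, 717 and 523 CPM at 25 h, and 347, 315 and 292 CPM at 27 h. No library of another of these times reached those of 19.5 h, and those of 27 h were the lowest. Its trend was -1.39 (SE 0.19, edgeR adjusted p = 4.64e-07). GAPA1 (AT3G26650) had 790.0, 713 and 670.3 CPM at 27 h, against 2089, 2018 and 1674 CPM at 19.5 h, and GAPA2 (AT1G12900) had 234, 235 and 249 CPM at 27 h, against 701, 599 and 774 CPM at 19.5 h. Neither gene had overlapping ends, and their trends were -1.12 and -1.19 (edgeR adjusted p = 9.94e-08 and 7.74e-07). The trends of the kinases were smaller: PGK1 had a trend of -0.77 (edgeR adjusted p = 1.08e-08) and PGK2 of -0.70 (edgeR adjusted p = 1.93e-10), the smallest p of all members on a small standard error of 0.06. PGK2 had 145, 145 and 122 CPM at 27 h, against 213, 230.0 and 198 CPM at 19.5 h.

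Regeneration of the CO2 acceptor uses aldolases (FBA1, FBA2, FBA3), the bisphosphatases SBPASE and HCEF1 (fructose-1,6-bisphosphatase), transketolases (TKL1, TKL2), triose phosphate isomerase (TIM), ribulose-phosphate 3-epimerase (RPE), ribose-5-phosphate isomerase (EMB3119) and, as the last step, phosphoribulokinase (PRK). FBA1 (AT2G21330) had the steepest trend among them, at -1.50 (SE 0.24, edgeR adjusted p = 3.49e-06). It had 2255, 2223 and 2162 CPM at 19.5 h, 655, 579 and 467 CPM at 21 h, 743, 916 and 729 CPM at 23 h, 1416, 1245 and 801 CPM at 25 h, and 516, 484 and 439.7 CPM at 27 h. The values of 21 h and 27 h overlapped and those of 25 h lay between them and those of 19.5 h. PRK (AT1G32060) had 1818, 1650.0 and 1369 CPM at 19.5 h, 1070.3, 961 and 845 CPM at 21 h, 781, 899.7 and 860.2 CPM at 23 h, 1184, 1146 and 723 CPM at 25 h, and 566, 526 and 535 CPM at 27 h. Its 27 h libraries were the lowest of these 5 times without overlap, and its trend was -1.24 (SE 0.15, edgeR adjusted p = 5.02e-08).

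The bisphosphatases, which commit sugar phosphates to regeneration, and FBA2 fell as well. SBPASE (AT3G55800) had 232, 206 and 222 CPM at 27 h, against 867, 827 and 788 CPM at 19.5 h, HCEF1 (AT3G54050) had 261, 248 and 238 CPM at 27 h, against 584, 559 and 559.8 CPM at 19.5 h, and FBA2 had 899, 784 and 744 CPM at 27 h, against 2786, 2912 and 2561 CPM at 19.5 h. None of these 3 had overlapping ends, and their trends were -1.24, -0.99 and -1.22. Smaller falls were found for EMB3119 (-0.71), RPE (-0.58), TIM (-0.49) and TKL1 (-0.48), with edgeR adjusted p between 1.62e-09 for EMB3119 and 1.12e-06 for TKL1. TKL1, at 872, 857 and 874 CPM at 27 h against 1256, 1138 and 1123 CPM at 19.5 h, still separated the 6 libraries.

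FBA3 (AT2G01140), a further chloroplast aldolase, and TKL2 (AT2G45290), a further transketolase, did not pass the trend test. FBA3 had 234, 229 and 195 CPM at 27 h, against 186, 200.0 and 186 CPM at 19.5 h, with overlapping libraries and a trend of -0.12 (SE 0.07, edgeR adjusted p = 0.172). TKL2 had 37.8, 34.7 and 34.5 CPM at 27 h, against 26.3, 33.3 and 25.7 CPM at 19.5 h. Its libraries did not overlap, but neither its trend of 0.06 (SE 0.12, edgeR adjusted p = 0.713) nor the contrast of the ends (0.33 on the log2 scale, edgeR adjusted p = 0.261) passed the test. When counts were scaled by library totals in place of TMM, the median trend of all tested genes was 0.32, against 0.01 with TMM, and 62.8% of all tested genes were then called rising and 9.29% falling. FBA3, TKL2 and CP12-3 were among those called rising and 29 members, all but CP12-1 and GOX2 of the 31, among those called falling. Relative to that median the members' median was -1.09 under either scaling.

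CP12 proteins are small redox-sensitive linkers that bind glyceraldehyde-3-phosphate dehydrogenase and phosphoribulokinase together when light is low. CP12-2 (AT3G62410) had 54.8, 71.9 and 88.8 CPM at 27 h, against 220.2, 139 and 112 CPM at 19.5 h, without overlap but with a wide spread, and a trend of -0.87 (SE 0.24, edgeR adjusted p = 0.00296). CP12-1 (AT2G47400) had 403, 405 and 418 CPM at 27 h, against 502, 473 and 409 CPM at 19.5 h, with overlap. Its trend was -0.51 (SE 0.11, edgeR adjusted p = 0.000274), and its 3 libraries of 21 h, with 631, 699 and 543 CPM, lay above all of 19.5 h. CP12-3 (AT1G76560), the least abundant of the tested members, had 5.34, 5.48 and 6.78 CPM at 27 h, against 2.78, 2.79 and 6.34 CPM at 19.5 h, with overlap through replicate 3 of 19.5 h, and a trend of 0.32 (SE 0.15, edgeR adjusted p = 0.072). Without replicate 3, the trend of CP12-3 was 0.49 (edgeR adjusted p = 0.00283).

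Photorespiration begins with phosphoglycolate phosphatase (PGLP1) in the chloroplast. PGLP1 had at most 0.8 CPM in each of the 48 libraries and was not tested. The locus (chr5:14421182-14424610) has a copy, AT5G36790 (chr5:14480482-14483927), whose coding sequence of 1089 bases differs from it at 0 positions, and 100% of the 50-base windows of PGLP1 occur elsewhere in the annotated transcripts. Reads from these windows fit more than 1 locus, and the count is no measure of PGLP1 expression. The opening 90 coding bases, in RefSeq annotation on TAIR10.1, are shown once, since both copies carry them.

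PGLP1 and AT5G36790: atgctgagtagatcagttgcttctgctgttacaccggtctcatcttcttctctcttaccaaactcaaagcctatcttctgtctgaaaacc

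The steps that follow oxidise glycolate (GOX1, GOX2), transfer amino groups to glyoxylate (GGT1, AGT1), convert glycine to serine in mitochondria through glycine decarboxylase (P proteins GLDP1 and GLDP2, T protein GLDT) and serine hydroxymethyltransferase (SHM1), and return glycerate to the Calvin cycle through hydroxypyruvate reductase (HPR1) and glycerate kinase (GLYK). The glycine-to-serine step held the steepest trends. GLDP1 (AT4G33010) had 2803, 2711 and 1928 CPM at 19.5 h, 1026, 894 and 914 CPM at 21 h, 986, 957 and 903 CPM at 23 h, 1396, 1293 and 929 CPM at 25 h, and 595, 504 and 564 CPM at 27 h. Its libraries of 19.5 h lay above and those of 27 h below all others of these times, and the trend was -1.48 (SE 0.20, edgeR adjusted p = 1.96e-07). SHM1 (AT4G37930) had 1856, 1715 and 1818 CPM at 19.5 h, 769, 643 and 599.6 CPM at 21 h, 973, 992 and 827 CPM at 23 h, 1057, 1089.8 and 847 CPM at 25 h, and 537, 419 and 421 CPM at 27 h. It showed the same separation of 19.5 h and 27 h, with a trend of -1.37 (SE 0.19, edgeR adjusted p = 3.58e-07).

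GLDP2 (AT2G26080) had 288, 264 and 280.3 CPM at 27 h, against 851, 826 and 761 CPM at 19.5 h, and GLDT had 241, 225 and 226 CPM at 27 h, against 652, 588 and 569.9 CPM at 19.5 h. Both separated the ends, with trends of -0.90 and -1.08. GOX1 (AT3G14420) had 754, 665 and 647 CPM at 27 h, against 2249, 2248 and 1868 CPM at 19.5 h, with a trend of -1.22 (SE 0.13, edgeR adjusted p = 4.86e-09). GOX2 (AT3G14415), next to GOX1 on chromosome 3, had 424, 422 and 455 CPM at 27 h, against 743, 669 and 657 CPM at 19.5 h, and a trend of -0.49 (SE 0.12, edgeR adjusted p = 0.000597). The aminotransferase genes had trends of -1.08 for GGT1 and -1.07 for AGT1, and HPR1 and GLYK had trends of -1.28 and -0.58, all with separate ends. GGT1 had 1406, 1226 and 1238 CPM at 27 h, against 3499, 3303 and 3230.0 CPM at 19.5 h.

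Levels of different genes were compared per length, as CPM per kb of the gene's exons in RefSeq. RCA and RBCS1A were the most abundant members at both ends. RBCS1A was at 2175 ± 98.4 and RCA at 1632 ± 139.7 CPM per kb at 27 h, against 4893 ± 269 for RBCS1A and 5486 ± 365 for RCA at 19.5 h (SD, n = 3 each). TKL2 and CP12-3 were the least abundant of the tested members, at 10.6 and 7.61 CPM per kb at 27 h, against 8.46 and 5.15 CPM per kb at 19.5 h.

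**Figure D3:**
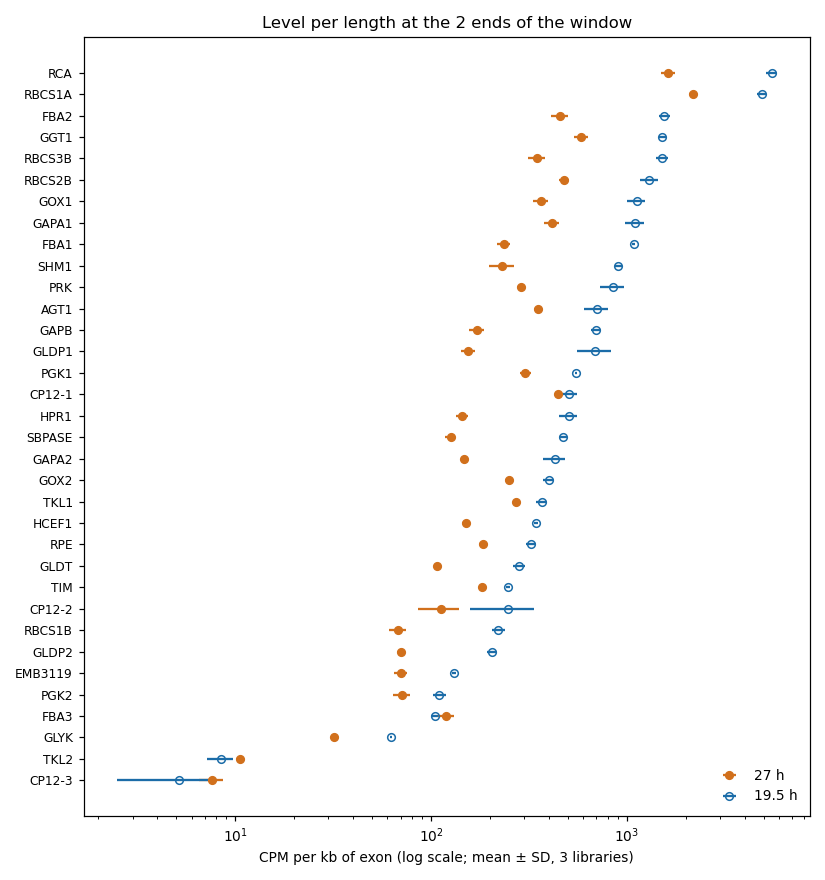
Level of the 34 tested members at 27 h (filled) and 19.5 h (open), as CPM per kb of exon on a log axis, with the mean and SD of 3 libraries, ordered by the level at 19.5 h. RBCS1A lies at 2175 CPM per kb at 27 h and 4893 at 19.5 h, and all but FBA3, TKL2 and CP12-3 have their 27 h mean left of the 19.5 h mean.

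The fall was not even over time. The time means of most members went up and down together: of 34 members, 30 had a mean above both neighbouring time points at 20.5 h, 24 did at 22 h, 33 did at 23.5 h, 31 did at 25.5 h and 30 did at 26.5 h. A mean below both neighbours was found at 20 h in 28 members, at 21 h in 30, at 23 h in 33 and at 26 h in 31. At 24 h, 16 members had such a low, and at 24.5 h, 17. These counts describe means that rest on 3 libraries each. Without both doubtful libraries, which leaves 2 at 22.5 h and at 24 h, the low was at 24 h in 30 members and at 24.5 h in 2, and a high was found at 22 h in 11 and at 22.5 h in 18. The counts at 23 h and 23.5 h were then 32 each, and those at the other times named here were the same.

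Contrasts of neighbouring time points, chosen after the data had been seen, showed where the steps exceeded the spread of replicates. From 20.5 h to 21 h, 28 of 34 members were lower at 21 h, where 10.6% of all tested genes were lower, and 0 were higher, where 9.59% were. The median of the members in this step was 0.549-fold. LHY was at 37.2, 34.6 and 27.9 CPM at 21 h, against 274, 220 and 218 CPM at 20.5 h. The part of this difference in the members' step was not tested. RBCS1B had 129, 132 and 117 CPM at 21 h, against 589, 674 and 341 CPM at 20.5 h, and FBA1 had the next largest step. The libraries of RBCS1B did not overlap, and its log2 difference was -2.09 (SE 0.44, edgeR adjusted p = 0.00168), against -1.94 for FBA1 (SE 0.42, edgeR adjusted p = 0.00200). The members that did not pass were AGT1, FBA3, TKL2 and the 3 CP12 genes. The count depended on single libraries: it was 16 without replicate 2 of 20.5 h (4.97% of all tested genes lower) and 18 without replicate 3 of 21 h (5.5%). The members' median was then 0.607-fold and 0.590-fold. With all libraries of replicate 2 left out, 0 members passed in this step, at a median of 0.598-fold, and 0% of all tested genes did.

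From 25.5 h to 26 h, 23 members were lower at 26 h, where 5.56% of all tested genes were, and 0 were higher, where 3.92% were. The median was 0.547-fold. LHY was lower in this step too, at 69.8, 41.9 and 61.5 CPM at 26 h, against 268, 265 and 182 CPM at 25.5 h. The part of that in the members' step was not tested either. GAPB had 377, 161 and 316 CPM at 26 h, against 844, 869.6 and 703 CPM at 25.5 h, without overlap (-1.51 on the log2 scale, edgeR adjusted p = 0.0120). The lowest value of GAPB at 26 h, as that of most members, was replicate 2: 28 of the 34 members were lower in that library than in both others of 26 h, at a median of 0.552 times their level. The mesophyll, epidermis and vasculature markers each had their lowest sum of all 48 libraries there, and the guard cell markers, at 70.8 CPM summed, did not. What moved these markers together with the members was not tested. The count was 0 without replicate 2 of 26 h (0% of all tested genes lower), 0 without replicate 2 of 25.5 h (0.427%) and 0 without all libraries of replicate 2 (0%). It was 3 without replicate 1 of 25.5 h (0.655%) and 17 without replicate 3 of 25.5 h (3.58%). The members' median in these settings was 0.520-fold to 0.665-fold. From 21 h to 21.5 h, TKL1 and CP12-3 were higher at 21.5 h, 2 members where 5.45% of all tested genes were higher. Without both doubtful libraries 17 members were higher in this step, where 8.12% of all tested genes were, at a median of 1.29-fold, against 1.30-fold with all libraries. At the other 12 steps 0 members passed the edgeR test, where at most 2.46% of all tested genes were higher and 2.72% lower. At these steps 0 to 21 members had an unadjusted p under 0.05, the 21 being at 25 h against 24.5 h. The share of all tested genes at that unadjusted threshold was not computed, so these counts cannot be set beside it. DESeq2 called 1 member lower at 23 h than at 22.5 h, where it called 3.88% of all tested genes lower. It called 1 lower at 24 h than at 23.5 h, where 1.29% were, and limma-voom called 0 at these 12 steps. When both doubtful libraries were left out, edgeR called 2 to 28 members at each of these steps but those into 22.5 h and 25.5 h, where it called 0.

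**Figure D4:**
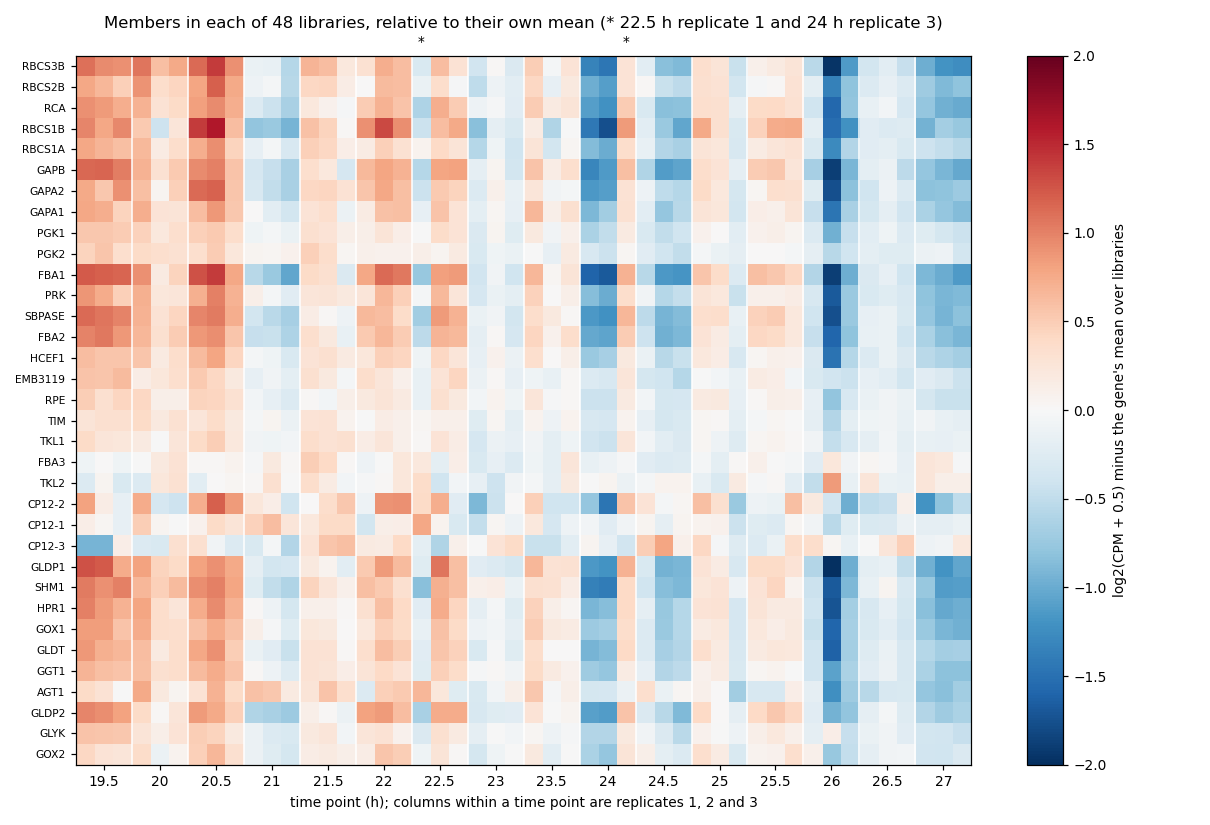
Each row is a tested member and each column a library, ordered by time (x axis, h) and replicate, with colour for log2(CPM + 0.5) minus the mean of the gene over the 48 libraries (red above, blue below). Asterisks mark 22.5 h replicate 1 and 24 h replicate 3. Most rows are blue in the 3 columns of 27 h and red in those of 19.5 h. In 24 h replicate 3, 31 of 34 members lie above both other libraries of that time.

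The doubtful libraries bore on the counts at steps near them and far from them. In 22.5 h replicate 1, 27 of 34 members lay below both other libraries of 22.5 h, and the members took 2.42% of the counts there, against 4.75% and 4.20%. GLDP2 had 277 CPM in that library and 727 and 724 CPM in the other two. In 24 h replicate 3, 31 members lay above both other libraries of 24 h, at a median of 2.27 times their level, and the members took 4.37% of the counts, against 1.86% and 1.78%. Without both libraries, 28 members were lower at 24 h than at 23.5 h, where 7.79% of all tested genes were, at a median of 0.485-fold, and 21 were lower at 23 h than at 22.5 h, where 6.88% were. The counts at 21 h and 26 h were 28 each without both, where 13% and 8.68% of all tested genes were lower, and 13 members were higher at 25 h than at 24.5 h, where 3.1% were. In steps whose own libraries were all kept, 6 members were lower at 20 h than at 19.5 h, where 3.65% of all tested genes were, 6 were higher at 22 h than at 21.5 h, where 4.93% were, 9 were higher at 26.5 h than at 26 h, where 1.02% were, and 9 were lower at 27 h than at 26.5 h, where 1.17% were. At 20.5 h, 23.5 h and 24.5 h, 2 members each were higher than at the time before, where 1.41%, 3.16% and 1.93% of all tested genes were. The members' median at 24.5 h was then 1.35 times that at 24 h, against 0.927 times with all libraries. The counts of slow trends changed by at most 1: 31 members still fell without both libraries, where 27.8% of all tested genes fell, 1 (CP12-3) rose, where 30.6% rose, and at the ends 30 were lower and 0 higher at 27 h, where 17% and 16.3% were.

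The study looked for rhythms of 2 to 5 h, so the 6 time terms with periods of 4 to 2 h were tested jointly. Of the 34 members, 1 passed, GLDP2 (edgeR adjusted p = 0.0419), where 6.56% of all tested genes passed, and 11 members had an unadjusted p under 0.05, where 29.4% of tested genes did. Without both doubtful libraries, 26 members passed, where 31.2% of all tested genes passed. Leaving out 24 h replicate 3 alone also gave 26, and leaving out 22.5 h replicate 1 alone gave 11. Both counts are given without the share of all tested genes, so they cannot be read as particular to the members. The 7 faster terms, with periods of 1.6 to 1 h, passed for 29 members, where 35.6% of all tested genes passed, and all 15 terms jointly passed for 32 members, all but TKL2 and CP12-2, where 63.8% did. Without both doubtful libraries the counts were 29, where 42.1% of all tested genes passed, and 33, where 70.9% did. Without replicate 2, 0 members passed the faster terms and 13 passed all terms, given here without the share of all tested genes. A window of 7.5 h with samples 0.5 h apart holds few cycles of any such period.

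Pairwise correlation over the 48 libraries described how alike the members were; libraries of a time point share their time, so no p is given. Across the 561 pairs of tested members the median Pearson r was 0.86, with 359 pairs above 0.8, and after removing each gene's linear trend it was 0.79, with 277 pairs above 0.8. The highest r, 0.996, was between GAPB and FBA2, genes of successive parts of the cycle. GOX1 and HPR1, both for peroxisomal enzymes, had an r of 0.991. With both doubtful libraries left out, the median r was 0.87 and, after removing the trends, 0.79. The lowest median r with the other members was that of TKL2, at -0.35, followed by CP12-3 at -0.19, FBA3 at 0.11 and CP12-1 at 0.37. CP12-1 was most like AGT1, with an r of 0.84. AGT1 (AT2G13360) had 1864, 1803 and 1417 CPM at 21 h, against 1521, 2028 and 1633 CPM at 20.5 h, with overlapping libraries, where most members had their step down. Both genes also had their highest value of 22.5 h in replicate 1, with 1970.1 CPM for AGT1 and 785 CPM for CP12-1, where most members had their lowest.

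Related genes were compared as ratios of their counts within each library, not per length, which do not depend on the scaling between libraries. Of 13 pairs, the ratio of 7 changed over the window by a permutation test of its slope on time (two-sided, 100000 resamples of times within each replicate, adjusted over the 13 pairs). The test took the 48 libraries as independent, although the 3 libraries of a time point share their time, so its p-values may be too small. GOX2 was at 0.631 times GOX1 at 27 h, against 0.326 times at 19.5 h, a change of 0.73 on the log2 scale over the window (permutation adjusted p = 6.5e-05). GLDP2 was at 0.502 times GLDP1 at 27 h, against 0.332 times at 19.5 h (0.61, permutation adjusted p = 6.5e-05). In both pairs the gene with the lower level fell less than its relative.

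FBA3 was at 0.271 times FBA2 at 27 h, against 0.0693 times at 19.5 h (1.12 on the log2 scale, permutation adjusted p = 0.000357). CP12-3 was at 0.083 times CP12-2 at 27 h, against 0.0244 times at 19.5 h (1.23, permutation adjusted p = 0.000357). TKL2 was at 0.0411 times TKL1 at 27 h, against 0.0241 times at 19.5 h (0.52, permutation adjusted p = 0.00394), and this ratio of TKL2 over TKL1 did not pass without replicate 1 (0.48, permutation adjusted p = 0.0541). These 3 ratios rose while the top gene itself did not pass its own trend test.

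RBCS3B was at 3.81 times RBCS1B at 27 h, against 5.10 times at 19.5 h, and its ratio fell by 0.60 on the log2 scale (permutation adjusted p = 0.00172). The ratio of FBA1 over FBA2 fell by 0.28 on the log2 scale (permutation adjusted p = 0.0411), at 0.594 at 27 h, against 0.805 at 19.5 h, and did not pass when any of the 3 replicates was left out (adjusted p 0.0753 to 0.185). The 6 other pairs did not pass: RBCS1A over RBCS1B (0.17, permutation adjusted p = 0.463), RBCS2B over RBCS1B (-0.03, 0.879), GAPA1 over GAPA2 (0.09, 0.463), GAPA1 over GAPB (0.29, 0.0541), PGK1 over PGK2 (-0.08, 0.282) and CP12-1 over CP12-2 (0.37, 0.16). Without both doubtful libraries, the ratio of GAPA1 over GAPB passed as well (0.30, permutation adjusted p = 0.0372), which made 8 pairs, with none of the 7 lost.

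**Figure D5:**
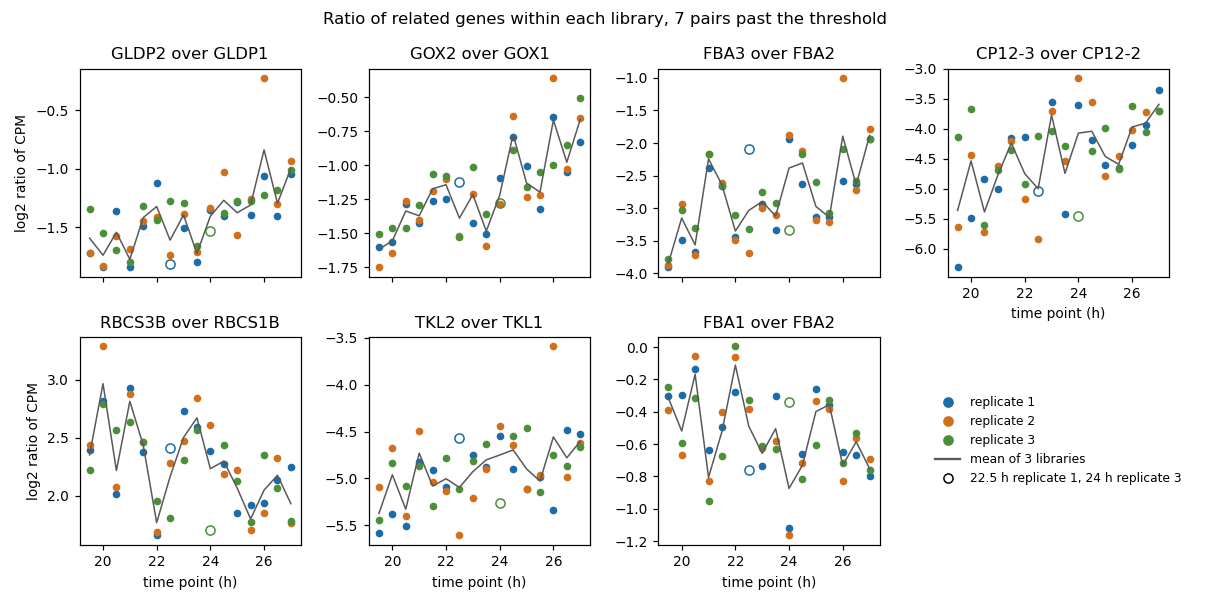
Log2 ratio of the CPM of related genes (y axes) in each library against time (x axes, h), for the 7 pairs whose ratio changed, coloured by replicate, with a line through the mean of 3 libraries. Open circles are 22.5 h replicate 1 and 24 h replicate 3. GOX2 over GOX1, GLDP2 over GLDP1, FBA3 over FBA2, CP12-3 over CP12-2 and TKL2 over TKL1 run upward, and RBCS3B over RBCS1B and FBA1 over FBA2 run downward.

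The members were set beside other genes of the same metabolism. Of 22 other genes of the Calvin cycle and of Rubisco assembly, the trend fell in 11 and rose in 4, with a median of -0.28. Over all tested genes, 27.1% fell and 27.9% rose. rbcL, the large subunit of Rubisco, had 643, 500.2 and 892 CPM at 19.5 h, 734, 1119 and 872 CPM at 21 h, 449.8, 603 and 525 CPM at 23 h, 429, 702 and 155 CPM at 25 h, and 459.9, 306 and 308 CPM at 27 h. Its libraries of 21 h overlapped those of 19.5 h, and its trend was -1.30 (SE 0.23, edgeR adjusted p = 2.33e-05). Plastid transcripts carry few poly(A) tails, and the sources used here do not say how well the libraries capture them. The thioredoxins TRXF2 and TRXF1, which switch on Calvin cycle enzymes in light, had trends of -1.05 and -0.97, and the chaperonin genes CPN60B1 (0.43), CPN60B3 (0.21) and CPN20 (0.16), which help fold Rubisco, rose.

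Of 21 tested other genes of photorespiration, the trend fell in 15 (27.1% of all tested genes fell) and rose in 2 (27.9% rose), with a median of -0.58. CAT2, the leaf peroxisomal catalase, had a trend of -2.15 (edgeR adjusted p = 2.26e-07), PLGG1, the chloroplast glycolate and glycerate transporter, a trend of -2.05, and the peroxisomal malate dehydrogenase PMDH2 a trend of -1.27. GOX3 (1.15) and BASS6 (0.25) rose. Of 12 genes for cytosolic counterparts of the enzymes, 6 fell and 2 rose, beside the same shares of 27.1% and 27.9% over all tested genes, with a median of -0.14. The cytosolic aldolases moved both ways: FBA5 (-2.02) and FBA7 (-0.86) fell, and FBA6 (0.22) and FBA4 (0.15) rose, while the cytosolic fructose-1,6-bisphosphatase CYFBP (-0.92) fell.

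Markers of leaf cell types also moved, and each passed the filter on low counts. All 6 mesophyll markers had falling trends, and their summed level was 41660 to 47981 CPM at 27 h, against 60601 to 72663 CPM at 19.5 h. All 5 epidermis markers fell, at 779 to 1009 CPM summed at 27 h, against 1359 to 1675 CPM at 19.5 h. Of 7 vasculature markers 5 fell, and of 5 guard cell markers 2 fell and 1 rose, while their summed levels overlapped between the ends. Over all tested genes, 27.1% fell and 27.9% rose. In the contrast of the ends, 3 of 6 mesophyll, 5 of 5 epidermis, 1 of 7 vasculature and 0 of 5 guard cell markers were lower at 27 h, where 16.3% of all tested genes were. The part of the cell make-up in the members' trends was not tested.

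Since most members moved together, the 300 bases upstream of each annotated start (RefSeq, TAIR10.1) were searched on both strands for 4 short motifs. The G-box CACGTG was in 6 of 35 members (17.1%), where 7.09% of 27443 gene promoters held it, and the I-box GATAAG in 6 of 35 (17.1%), where 14.5% of promoters did. The evening element AAAATATCT was in 0 members, where 2.79% of promoters held it, and the CCA1-binding motif AAAAATCT in 2 (5.71%), where 7.94% did. Each window ended at the outermost annotated start of its gene, so motifs beyond 300 bases or within the annotated transcript were not searched. The windows of RBCS1A, RBCS1B and RBCS3B held neither G-box nor I-box, which does not show that these genes lack them. RBCS2B and HCEF1 were the members whose windows held both the G-box and the I-box. These windows are printed in the direction of transcription, with both motifs in capitals (CTTATC is the I-box on the opposite strand). RBCS2B is at chr5:15382072-15382371 on the minus strand and HCEF1 at chr3:20016537-20016836 on the plus strand.

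RBCS2B: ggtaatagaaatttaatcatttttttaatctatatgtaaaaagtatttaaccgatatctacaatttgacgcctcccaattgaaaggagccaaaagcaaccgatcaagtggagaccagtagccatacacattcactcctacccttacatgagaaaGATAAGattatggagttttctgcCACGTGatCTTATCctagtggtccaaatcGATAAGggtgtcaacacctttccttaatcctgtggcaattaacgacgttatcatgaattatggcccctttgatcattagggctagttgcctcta
HCEF1: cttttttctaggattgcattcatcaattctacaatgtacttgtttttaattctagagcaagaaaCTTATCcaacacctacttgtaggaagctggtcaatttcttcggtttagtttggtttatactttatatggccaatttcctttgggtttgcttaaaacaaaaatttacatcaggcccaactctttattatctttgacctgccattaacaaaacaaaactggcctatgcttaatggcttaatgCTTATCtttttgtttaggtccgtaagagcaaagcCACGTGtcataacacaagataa

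The RBCS2B window holds 3 I-boxes and 1 G-box within 60 bases of each other, and the HCEF1 window 2 I-boxes and 1 G-box. Motif matches were not compared with trends. A match is a description of the letters, and no binding was measured here.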

How the data were processed

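Leaf RNA was sequenced on an Illumina instrument. The authors used FastQC for checking and trimming, STAR for alignment to TAIR10 and HTSeq for counting. The sources used here do not give their versions, the strand setting or the annotation release. They deposited whole-number counts per gene for 34262 genes in 48 libraries, not normalized. Not used was 1 further column, which holds no sample.

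Time and replicate number were taken from the labels. Counts were tested with edgeR 4.0.16 in R 4.3.3: TMM scaling, a minimum mean of 1 CPM, quasi-likelihood F tests with the replicate number as a factor, as in the study's methods, and 15 orthonormal time terms over all 48 libraries, or the 16 time points as a factor for contrasts, with 30 residual degrees of freedom. The linear term gave the slow trend. Ratios of 13 pairs were tested by permutation (100000 resamples, prior count 0.5). MetaCycle, which the study used for rhythms, was not run. The test was checked on simulated data.

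The members and lists were chosen with earlier results of these data known. Named with full values are the 5 members with the steepest falling trends and RBCS1A, RBCS1B, RCA and PRK (0 members rose), and from other lists up to 3 genes a direction at 10 CPM or more, and rbcL; other members are named to account for all 35. Alternatives were other scalings, filters at 0 and 5 CPM, no replicate factor, libraries, replicates or time points left out, DESeq2 1.42.0 and limma-voom (limma 3.58.1). No libraries held identical counts, and the lowest chi-square per degree of freedom between libraries of a time point was 8.06. Names and sequences came from RefSeq (TAIR10.1), which held 113 of 114 listed genes. Reads of RCA, PRK, GAPA1, HCEF1, FBA3, PGK1, TIM, EMB3119, GOX1 and GLDP1 may include those of overlapping genes.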

Additional observations from a re-analysis of the deposited data

How the results depend on the processing

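The count of members with a falling trend was 31, and 29 (scaled by library totals) to 32 (no filter on low counts) under the alternatives. The count with a rising trend, 0, was 3 with library totals and 1 without both doubtful libraries, and 0 to 1 when a replicate, a time point or a single library was left out. The count of members higher at 27 h than at 19.5 h, 0, was 2 with library totals and 0 to 1 when a replicate or a single library was left out; this contrast has no value without the 19.5 h or the 27 h time point. The count lower at 27 h, 30, was 26 to 30 when a replicate was left out. The count with any difference, 32, was 13 to 32 when a replicate and 30 to 33 when a time point was left out, and that with variation faster than 2 h, 29, was 0 to 27. Without the 20.5 h or the 21 h time point the faster count was 14 or 19. The counts in this paragraph are given without the share of all tested genes in each setting, so their changes may not be particular to the members.

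The count with 2 to 5 h variation, 1, was least stable. It was 26 without both doubtful libraries, 9 with DESeq2, 2 with no replicate block and 0 with no filter. It was 0 to 8 when a replicate, 0 to 22 when a time point (22 without 26 h) and 0 to 26 when a single library was left out. For these ranges the share of all tested genes is not given, so changes in the members cannot be told from changes over all genes. Over all tested genes it was 1152, against 5480 without both doubtful libraries, 3294 with DESeq2, 1808 with no replicate block and 703 with no filter. Whether the replicate numbers pair the samples was looked at in correlations of deviations from the time mean between libraries of different times. The median r was -0.066 for the same number, against 0.037 for different numbers. Of the 360 same-numbered correlations, 115 were above 0.1. A median over many genes cannot exclude an order by replicate number in single genes. LHY had 217.8, 184.6 and 147.7 CPM in replicates 1, 2 and 3 at 20 h, and 305.6, 231.4 and 179.9 CPM at 22 h. At 26 h it had 69.8, 41.9 and 61.5 CPM, in another order. With no replicate block the count of falling trends stayed at 31 and that of pairs was 8.

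The trend of FBA3 turned to 0.20 with library totals and that of TKL2 to -0.060 without 26 h replicate 2. The ratio of RBCS2B over RBCS1B (-0.03) was -0.16 to 0.12 when a time point was left out: it turned to 0.05 without replicate 2, 0.12 without 20 h, 0.10 without 21 h and 0.09 without 25.5 h. The cause of these changes was not tested. The count of changed pairs, 7, was 5 to 6 when a replicate and 6 to 8 when a time point was left out.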
